A study of Mus musculus with 12 samples.

Results

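The genes described here encode 6 inhibitory receptors of lymphocytes (Lag3, Havcr2, Tigit, Cd160, Cd244a and Vsir), the inhibitory ligands CD200 (Cd200) and PD-L1 (Cd274) and the nuclear factor Tox, 9 of 19938 genes measured. They were taken by gene symbol from the array platform's annotation, with the brightest row kept where a gene had several, and each of the 9 genes had 1 row. The cells were CD8+CD28low regulatory T cells of C57Bl/6 mice, profiled on whole-transcript microarrays in a series on how loss of AIRE affects these cells. The 4 groups of 3 arrays were freshly isolated wild-type cells (native WT), freshly isolated AIRE ko cells (native KO), and cells of either genotype kept in culture for 96 h together with allogenic antigen-presenting cells (APC) plus an antibody to CD3 (activated WT and activated KO). No group held cells cultured without the stimulus, so time in culture and the stimulus cannot be told apart. The labels call the arrays biological replicates but leave unstated the number of mice per array, the sorting of the cells and the part of Aire that was removed.

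Inhibitory receptors restrain T cells after antigen contact. LAG-3 binds MHC class II and other ligands, TIM-3 (Havcr2) binds galectin-9, CEACAM1 and phosphatidylserine, TIGIT competes with the activating receptor CD226 for the poliovirus receptor, and CD160 binds HVEM (Tnfrsf14). CD244 (2B4) binds CD48 and can activate or inhibit depending on the adaptors present, VISTA (Vsir) helps to keep resting T cells quiescent, and CD200 acts through its receptor on other cells. TOX is a DNA-binding protein needed for T cell development in the thymus and for the programme of exhausted CD8 T cells, in which several of these receptors are expressed together.

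On activation the 9 genes separated into risers and fallers. Transcripts of Lag3, Havcr2, Tigit and Cd244a rose, and those of Vsir and Tox fell, in both genotypes. Cd274 fell in wild-type cells, Cd160 did not pass the test in either genotype, and Cd200 was at background throughout. No gene of the 9 passed the test between KO and WT cells in either state.

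Values are log2 expression as deposited, and a difference of 1 is a doubling or halving. Background was set for each array at the 95th percentile of its 1027 olfactory receptor genes, which serve smell. It lay between 6.12 and 6.72 on all arrays but activated KO array 3, where it was 7.31. A gene counted as at background in a group where none of its 3 arrays exceeded this level. Levels on such arrays are not comparable between genes, so each gene is compared only with itself. In bulk RNA, fewer cells that express a gene and less RNA per cell cannot be told apart.

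The labelled cell type was checked first. None of the 10 CD8 T cell markers measured was at background in any group, and Cd8a ranged from 10.77 to 12.70 over the 12 arrays. Of 6 CD4 and regulatory T cell markers, Cd4 and Zbtb7b were at background in native cells, and Cd4 and Foxp3 in activated cells. Zbtb7b averaged 5.76 in native WT and 5.94 in native KO, against 7.67 and 7.35 after activation. Foxp3 exceeded background on 2 native WT arrays and 1 native KO array. Il2ra, Ctla4 and Ikzf2 were at background in no group. Cd28 lay between 9.98 and 11.97, well above background on every array of these CD28low cells. Aire itself was at background on all 12 arrays (5.55 to 5.92), so its level checks no genotype label. Of the 9 B cell markers measured, 8 were at background in each activated group (all but Cd79b), as were 14 of 15 myeloid and dendritic cell markers in activated WT and 13 of 15 in activated KO. Among native cells 8 of the 9 B cell markers were at background in WT and 7 in KO. Only 10 of the 15 myeloid and dendritic cell markers were at background in each native group. Of 12 neutrophil markers, 4 were at background in native WT and 2 in native KO, against 11 in each activated group. Activated KO array 3 stood apart, with the narrowest interquartile range of all arrays (2.06, against 2.49 to 3.00 on the others) and the lowest mean level of the CD8 T cell markers (10.60, against 11.29 to 11.85).

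Promoter sequences are shown for the 4 receptor genes called in both genotypes that had an entry in the RefSeq promoter table (GRCm38.p6). NFAT and AP-1, whose letters are marked, are factors that act below the T cell receptor. Havcr2, Tigit and Cd244a rose and Vsir fell. Each is the 250 bases before the start that the table lists, read 5′ to 3′ on the gene's strand, with capitals at matches to the AP-1 letters TGANTCA or the NFAT core GGAAA on either strand. The windows are chr11:46454681-46454930 on the plus strand for Havcr2, chr16:43664185-43664434 on the minus strand for Tigit, chr1:171558943-171559192 on the plus strand for Cd244a and chr10:60346601-60346850 on the plus strand for Vsir. The windows of Havcr2 and Vsir end just before the gene span given below, while those of Tigit and Cd244a lie inside their gene spans, before a start within the gene.
Havcr2: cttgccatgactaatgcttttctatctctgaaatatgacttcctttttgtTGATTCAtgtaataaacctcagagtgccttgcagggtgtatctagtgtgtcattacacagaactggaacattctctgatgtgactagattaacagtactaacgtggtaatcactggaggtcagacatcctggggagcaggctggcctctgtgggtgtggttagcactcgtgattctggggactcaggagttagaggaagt
Tigit: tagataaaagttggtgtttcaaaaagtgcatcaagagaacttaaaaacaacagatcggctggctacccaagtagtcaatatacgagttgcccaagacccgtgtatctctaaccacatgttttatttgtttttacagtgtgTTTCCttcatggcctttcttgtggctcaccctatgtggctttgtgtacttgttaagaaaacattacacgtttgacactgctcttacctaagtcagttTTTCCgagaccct
Cd244a: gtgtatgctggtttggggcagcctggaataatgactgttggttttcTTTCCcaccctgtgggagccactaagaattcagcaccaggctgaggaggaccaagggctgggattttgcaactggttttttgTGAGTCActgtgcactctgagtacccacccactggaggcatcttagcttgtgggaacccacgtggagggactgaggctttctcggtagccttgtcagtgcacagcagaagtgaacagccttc
Vsir: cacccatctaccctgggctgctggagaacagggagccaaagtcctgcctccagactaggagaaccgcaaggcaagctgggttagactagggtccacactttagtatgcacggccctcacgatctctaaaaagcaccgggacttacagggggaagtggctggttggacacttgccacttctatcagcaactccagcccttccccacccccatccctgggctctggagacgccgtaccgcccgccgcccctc
Havcr2 held 1 AP-1 match, whose first base lay 200 bases before the start. Cd244a held 1 AP-1 match 122 bases before the start and 1 NFAT core match at 204. Tigit held 2 NFAT core matches, at 110 and 13 bases, and Vsir held neither motif. Among all 32851 promoter windows of this length, 6.75% held the AP-1 letters and 55.6% held the NFAT core. Of the 7 genes with an entry, counting Cd160 if either of its 2 windows matched, 2 held an AP-1 match, 4 an NFAT core match, 6 an E-box (CANNTG, found in 66.2% of all windows) and 1 a GAS element (TTCNNNGAA, found in 7.02%). No 2 matches in these windows overlapped, and a match describes letters only.

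Activation moved 7 of the 9 genes in wild-type cells (4 higher, 3 lower) and 6 of the 9 in KO cells (4 higher, 2 lower) past an adjusted p of 0.05 (limma, Benjamini-Hochberg over 19938 genes). The WT count was 4 without native WT array 1, 2 or 3 or activated WT array 1. The same threshold was passed by 20.6% of all genes in WT (9.72% higher, 10.9% lower) and 20.1% in KO (8.72% higher, 11.4% lower). The arrays of native and activated cells did not overlap for 7 of the 9 genes in each genotype, against 41% of all genes in WT and 30.9% in KO. The median difference of the 9 genes was -0.06 in WT and -0.07 in KO, beside -0.02 and 0.02 over all genes. With 3 arrays against 3 an exact two-sided permutation test cannot give a p below 0.1, the value it gave for each of the genes whose arrays did not overlap.

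**Figure D1:**
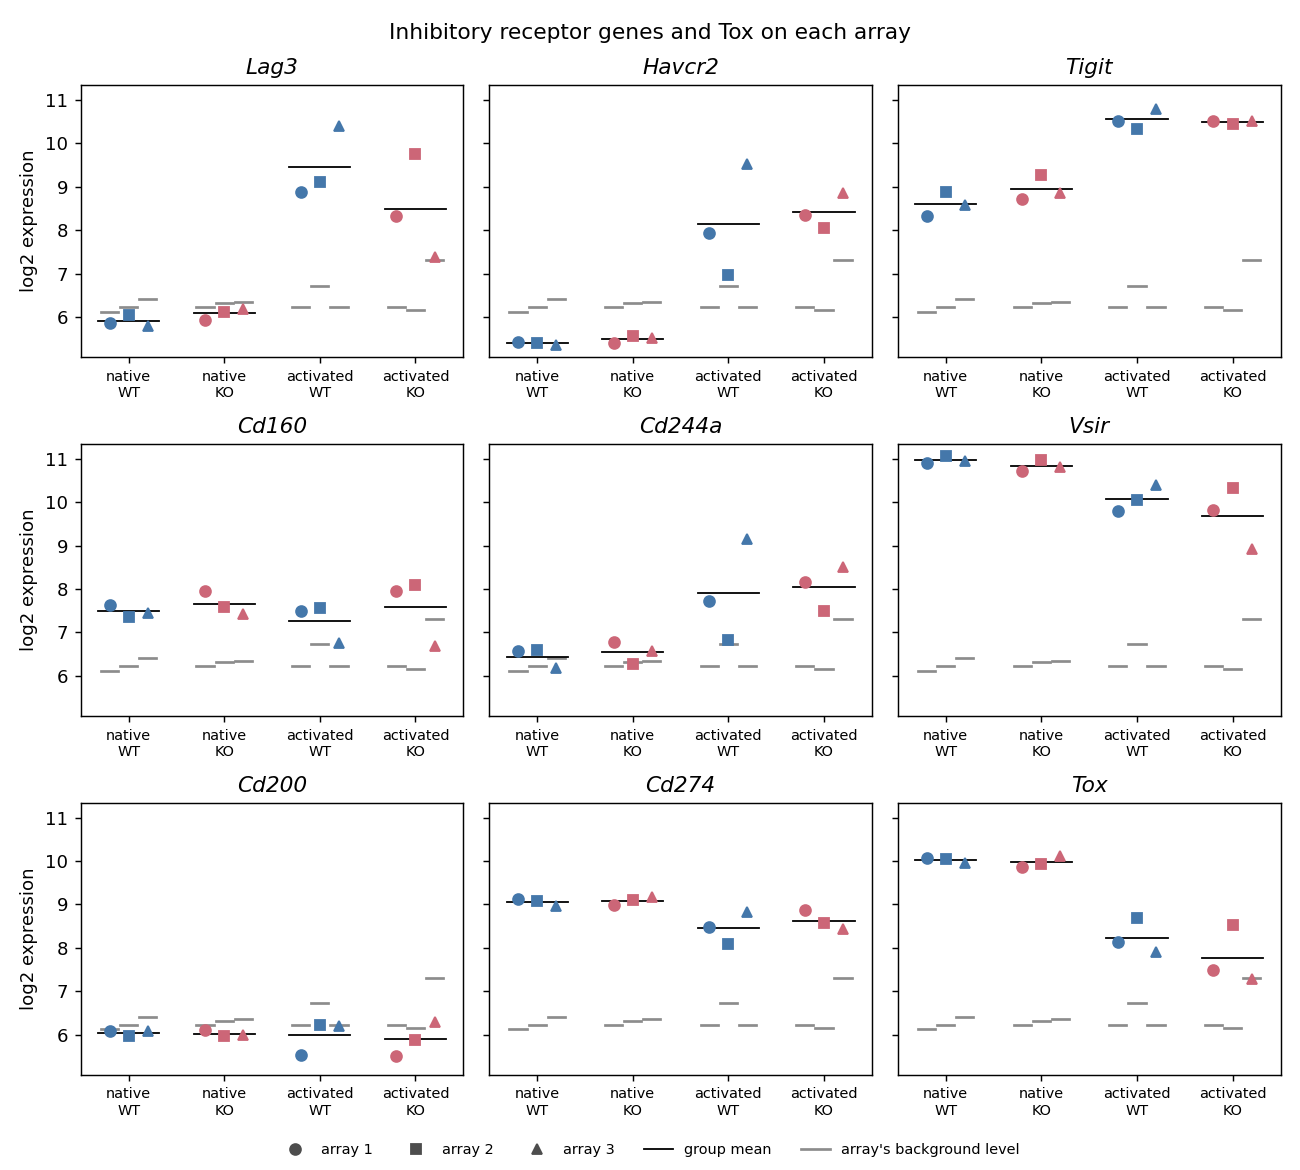
Log2 expression of the 9 genes (1 panel each) on every array of native WT, native KO, activated WT and activated KO; symbols are arrays 1 to 3, black lines group means and grey dashes each array's background level. Lag3 and Havcr2 lay under background on all 6 native arrays and above it on all 6 activated arrays, Tox and Vsir lay lower after activation, and Cd200 lay under background on all 12 arrays.

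Lag3 encodes a CD4-like receptor for MHC class II (chr6:124904359-124912434). Its level was 5.85, 6.05 and 5.80 on native WT arrays 1 to 3 and 5.92, 6.12 and 6.19 on native KO arrays. It was 8.88, 9.10 and 10.41 on activated WT arrays and 8.33, 9.75 and 7.39 on activated KO arrays. All 6 native arrays were under background and all 6 activated arrays above it, with activated KO array 3 only just so. The fitted difference was 3.56 ± 0.50 (SE, 3 arrays per group) in WT (limma adjusted p = 0.000387) and 2.42 ± 0.50 in KO (adjusted p = 0.00514). Measured from the background level, Lag3 was at least 9.25-fold higher after activation in WT and at least 4.6-fold higher in KO. Leaving out activated KO array 3 gave 2.96 in KO cells.

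Havcr2, the gene of TIM-3 (chr11:46454931-46481255; promoter above), was also at background on every native array. It read 5.42, 5.39 and 5.36 in native WT and 5.40, 5.55 and 5.51 in native KO. After activation it read 7.93, 6.97 and 9.52 in WT and 8.35, 8.06 and 8.85 in KO, so all 6 activated arrays lay above all native ones while the WT arrays were the more spread. The difference was 2.75 ± 0.47 in WT (limma adjusted p = 0.00137) and 2.93 ± 0.47 in KO (adjusted p = 0.000969). From the background level this was at least 3.7-fold in WT and at least 4.37-fold in KO.

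Tigit encodes an immunoglobulin receptor for the poliovirus receptor family (chr16:43626137-43665125; promoter above). Unlike Lag3 and Havcr2, it was above background in native cells, at 8.33, 8.87 and 8.58 in WT and 8.72, 9.28 and 8.85 in KO. It read 10.51, 10.34 and 10.80 in activated WT and 10.51, 10.45 and 10.51 in activated KO. The activated arrays of either genotype lay close together, and no activated array overlapped a native one. Tigit rose by 1.96 ± 0.18 in WT, which is 3.88-fold with a 95% interval of 2.97 to 5.07 (limma adjusted p = 1.31e-05). It rose by 1.54 ± 0.18 in KO, or 2.9-fold with an interval of 2.22 to 3.8 (adjusted p = 9.82e-05).

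Cd244a, the gene of 2B4 (chr1:171558718-171585316; promoter above), was close to background in native cells. It read 6.56, 6.60 and 6.17 in native WT and 6.77, 6.27 and 6.57 in native KO, where 2 of 3 arrays of each genotype exceeded background. It read 7.73, 6.83 and 9.15 in activated WT and 8.16, 7.49 and 8.50 in activated KO. The lowest activated WT array lay only just above the highest native WT array. The difference was 1.46 ± 0.45 in WT (limma adjusted p = 0.0404) and 1.51 ± 0.45 in KO (adjusted p = 0.0351). In WT the call was lost in 9 of the 12 fits that each left out 1 array, the exceptions being those without activated WT array 2, activated KO array 2 or activated KO array 3. The adjusted p of those 9 lay between 0.0521 and 0.127, and without activated WT array 3 the difference was 0.84. In KO the call was lost without any 1 of native KO arrays 1, 2 and 3 or activated KO arrays 1 and 3 (adjusted p from 0.0677 to 0.12).

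Havcr2 and Cd244a had the same order of arrays in each activated group, with array 3 highest and array 2 lowest. The mean level of 9 NK cell markers had that order too, at 7.63, 7.00 and 7.66 on activated WT arrays 1 to 3 and 7.85, 7.43 and 7.92 on activated KO arrays. Of these markers, Ncr1 and Klra8 were at background in both activated groups. Klrb1c (NK1.1) was above background on 2 of 3 activated WT arrays and 3 of 3 activated KO arrays, and Klre1 was above it on all activated arrays and rose (0.85 ± 0.14 in WT and 0.83 ± 0.14 in KO). Fcer1g, the signalling chain of several NK cell and myeloid receptors, read 10.33, 8.30 and 11.18 in activated WT and 10.97, 9.44 and 11.44 in activated KO. Tyrobp had that order of arrays in both groups too, but not every marker did. Klri2 had the reverse, at 7.02, 7.21 and 6.79 in activated WT and 7.28, 7.48 and 6.76 in activated KO. Gzma was highest on array 1 of each activated group. The NK list ranged from 7.38 to 7.84 in native WT, 7.75 to 8.54 in native KO, 7.00 to 7.66 in activated WT and 7.43 to 7.92 in activated KO. In each genotype 4 of its 9 genes were called on activation, 2 higher and 2 lower in WT and 1 higher and 3 lower in KO. Over all genes 20.6% were called in WT and 20.1% in KO. The part of the NK list in the rise of Havcr2 and Cd244a was not tested.

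Cd160 encodes a receptor for HVEM found on NK cells and cytotoxic T cells (chr3:96798763-96829351). It read 7.64, 7.35 and 7.45 in native WT, 7.95, 7.58 and 7.43 in native KO, 7.49, 7.56 and 6.75 in activated WT, and 7.96, 8.10 and 6.69 in activated KO. Native and activated arrays overlapped in both genotypes, and array 3 was the lowest of each activated group and under its own background in KO. The difference was -0.22 (95% interval -0.94 to 0.51) in WT and -0.07 (-0.79 to 0.66) in KO, with limma adjusted p of 0.768 and 0.932. Without activated KO array 3 the KO difference was 0.379, and its sign also turned in WT without activated WT array 3 (0.0433).

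Vsir, the gene of VISTA (chr10:60346851-60430294; promoter above), was the receptor that fell. Native arrays read 10.91, 11.06 and 10.95 in WT and 10.71, 10.96 and 10.82 in KO. Activated arrays read 9.79, 10.04 and 10.39 in WT and 9.82, 10.32 and 8.93 in KO, each below every native array of its genotype. Vsir fell by 0.90 ± 0.28 in WT, to 0.536 of its native level (limma adjusted p = 0.0387). It fell by 1.14 ± 0.28 in KO, to 0.453 of its native level (adjusted p = 0.0122). Without activated KO array 3 the fall in KO was 0.761 with an adjusted p of 0.00923. In WT the call was lost without any 1 of the 6 native arrays or activated WT arrays 1 or 2 (adjusted p from 0.054 to 0.139). With only the native and activated KO arrays in the fit, the KO call was also lost (adjusted p = 0.0584).

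Cd200, an immunoglobulin-family surface protein (chr16:45382111-45409060), was under background on all 12 arrays, between 5.50 and 6.29. Its gene lies 1.72 Mb from Tigit on the same chromosome. Differences of Cd200 are therefore not read here.

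Cd274 encodes PD-L1, the ligand of PD-1 (chr19:29362107-29388095). It read 9.12, 9.08 and 8.96 in native WT and 8.98, 9.10 and 9.18 in native KO. It read 8.47, 8.09 and 8.82 in activated WT and 8.86, 8.58 and 8.43 in activated KO. Every activated array lay below every native array of its genotype. Cd274 fell by 0.60 ± 0.17 in WT (limma adjusted p = 0.0286), to 0.661 of its native level. In KO the difference was -0.46 (95% interval -0.84 to -0.08), which did not pass the test (adjusted p = 0.087). The WT call was lost without native WT array 1, 2 or 3 or activated WT array 1 or 2 (adjusted p from 0.055 to 0.0963), and the KO difference passed without activated WT array 2 (adjusted p = 0.035) or array 3 (adjusted p = 0.0438).

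Tox (chr4:6686353-6991557) was well above background in native cells, at 10.07, 10.05 and 9.95 in WT and 9.86, 9.93 and 10.12 in KO. After activation it read 8.13, 8.69 and 7.89 in WT and 7.48, 8.52 and 7.28 in KO. All 6 activated arrays lay more than 1 log2 unit below all 6 native arrays, and activated KO array 3 was just under its own background. Tox fell by 1.79 ± 0.28 in WT, to 0.289 of its native level (limma adjusted p = 0.000889). It fell by 2.21 ± 0.28 in KO, to 0.216 (adjusted p = 0.000206). Tox thus moved opposite to Lag3, Havcr2, Tigit and Cd244a in both genotypes.

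Some CD8 T cell markers also fell on activation of KO cells. Of the 10 measured, 3 fell in KO (Cd8a, -1.12 ± 0.27; Cd247, -1.04 ± 0.26; Cd5, -0.98 ± 0.20) and 0 were called in WT by limma. Over all genes 11.4% fell in KO and 20.6% were called in WT. Without activated KO array 3 the KO difference was -0.788 for Cd8a and -0.678 for Cd247, and the call of Cd247 was lost without native KO array 2 or 3 (adjusted p from 0.0529 to 0.0596). The median difference of the list was -0.60 in KO and -0.31 in WT, beside -1.14 and -0.90 for Vsir, -0.46 and -0.60 for Cd274 and -2.21 and -1.79 for Tox. The mean level of the list ranged from 11.78 to 11.84 in native WT, 11.81 to 11.85 in native KO, 11.33 to 11.66 in activated WT and 10.60 to 11.67 in activated KO. Its part in the falls of Vsir, Cd274 and Tox was not tested.

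**Figure D2:**
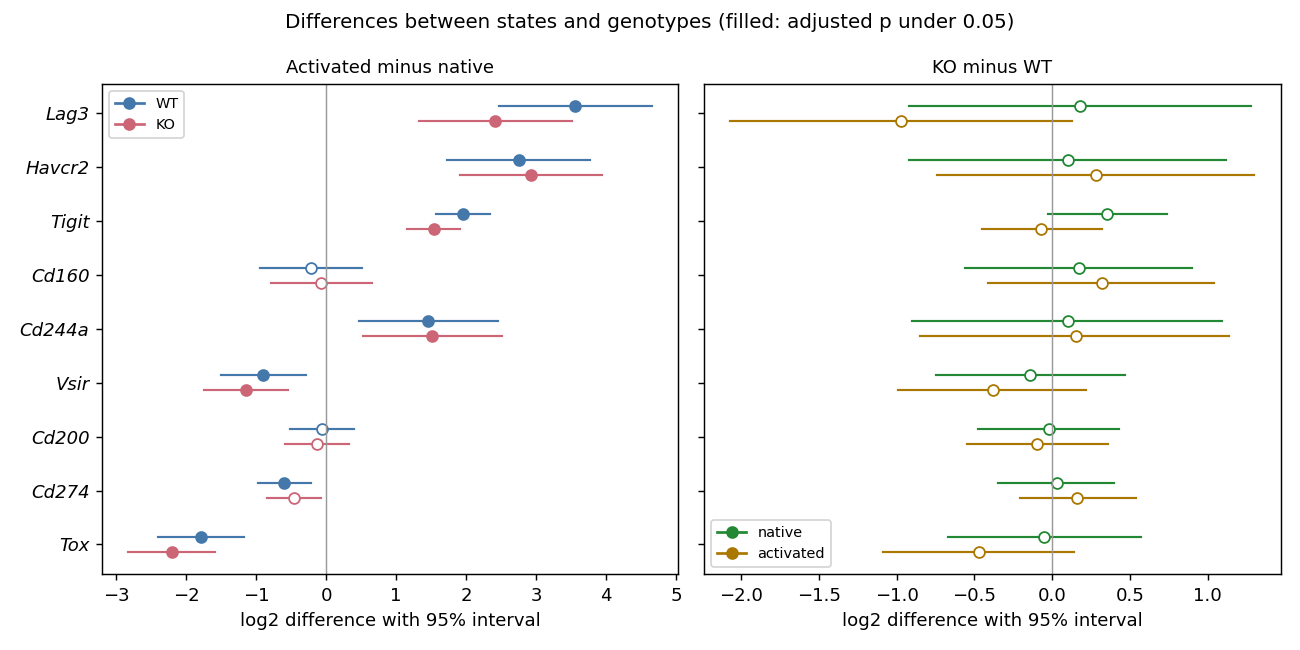
Log2 differences of the 9 genes with 95% intervals from the limma fit: activated minus native in WT and KO cells (left) and KO minus WT in native and activated cells (right); filled points passed an adjusted p of 0.05. The intervals for Lag3, Havcr2, Tigit and Cd244a lie right of 0 and those for Vsir, Cd274 and Tox left of 0 on activation, while every KO minus WT interval includes 0.

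The activated arrays varied more among themselves than the native ones. The median standard deviation of the 9 genes was 0.0827 in native WT and 0.135 in native KO, close to the medians over all genes (0.0989 and 0.122). It was 0.411 in activated WT and 0.516 in activated KO, above the all-gene medians of 0.159 and 0.247. Those medians include genes at background, where RMA compresses differences, since only 10545 of 19938 genes exceeded background on at least 3 arrays. The 9 genes were not compared with expressed genes alone. In activated WT, array 3 held the highest value of 6 of the 9 genes (Lag3, Havcr2, Tigit, Cd244a, Vsir and Cd274) and the lowest of Cd160 and Tox. In activated KO, array 3 held the lowest value of 5 genes (Lag3, Cd160, Vsir, Cd274 and Tox) and the highest of Havcr2, Cd244a and Cd200, the last under background. The fit shares 1 error per gene over all 4 groups.

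**Figure D3:**
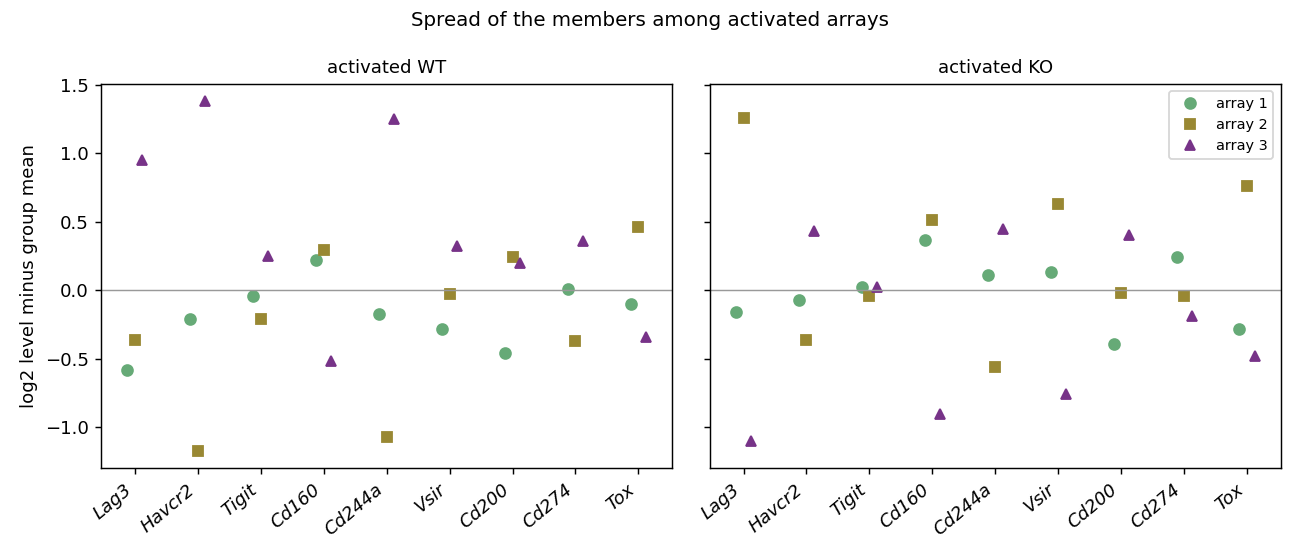
Log2 level of each of the 9 genes on the 3 activated arrays minus the mean of their group, in activated WT (left) and activated KO (right); symbols and colours mark arrays 1 to 3. Array 3 of activated WT lies highest for Lag3, Havcr2 and Cd244a, whereas array 3 of activated KO lies lowest for Lag3 and Vsir and highest for Havcr2 and Cd244a.

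In native cells, KO and WT arrays overlapped for all 9 genes, and 0 of 9 passed limma's test (0 at an unadjusted p under 0.05). Over all genes 0% passed, 131 genes had an unadjusted p under 0.05, and 7.04% had arrays that did not overlap. The largest difference among the 9 was that of Tigit, 0.35 ± 0.18 higher in KO (95% interval -0.03 to 0.74; adjusted p = 1). By replicate number, a pairing chosen from these same data, the KO array exceeded the WT array in 3 of 3 pairs, by 0.38, 0.41 and 0.26. With the native arrays alone and the number as a block, a fit chosen after seeing the data, Tigit was 0.353 ± 0.0778 higher and did not pass (adjusted p = 0.311). In the same groups the NK markers ranged from 7.75 to 8.54 in KO and 7.38 to 7.84 in WT, and the 12 neutrophil markers from 5.88 to 7.87 in KO and 5.41 to 6.45 in WT. All 9 NK markers and all 12 neutrophil markers had a higher mean in native KO, and their part in the Tigit values was not tested. Lag3 values were also higher in KO in 3 of 3 pairs (0.08, 0.07 and 0.40), but Lag3 was at background in both groups, so no direction is read. Vsir was lower in 3 of 3 pairs (-0.20, -0.10 and -0.13). The other 8 genes differed by between -0.14 (Vsir) and 0.18 (Lag3). The intervals of Vsir (-0.75 to 0.47), Tox (-0.67 to 0.57) and Cd274 (-0.35 to 0.40) bound what could have gone unseen in this fit. They use the error shared over all 4 groups, so they do not measure the native spread alone. For Vsir the standard deviation was 0.08 and 0.13 in native WT and KO, against 0.30 and 0.71 in activated WT and KO.

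In activated cells, again 0 of 9 genes passed limma's test (0 at an unadjusted p under 0.05) and 0 of 9 had arrays that did not overlap. Over all genes 0% passed, 87 had an unadjusted p under 0.05, and 1.75% had arrays that did not overlap. Lag3 had the largest difference of the 9, -0.97 ± 0.50 in KO against WT (95% interval -2.07 to 0.13; adjusted p = 1). Its 3 activated KO arrays read 8.33, 9.75 and 7.39, and 1 of them lay within the WT range of 8.88 to 10.41. Leaving out activated KO array 3 gave -0.421, and leaving out activated KO array 2 gave -1.6. Tox had overlapping arrays in the 2 genotypes, with a difference of -0.47 ± 0.28 (interval -1.09 to 0.14; adjusted p = 1) and -0.233 without activated KO array 3. Vsir differed by -0.38 (interval -0.99 to 0.22) and by -0.00299 without that array. Havcr2 (0.28, interval -0.74 to 1.30) and Cd244a (0.15, interval -0.85 to 1.14) had wide intervals, and Tigit a narrower one (-0.07, interval -0.45 to 0.32).

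Whether activation moved the genes differently in the 2 genotypes was tested by the interaction. None of the 9 passed (0 at an unadjusted p under 0.05 in limma, against 86 of all genes; 0% of all genes passed after adjustment). The estimates were -1.15 ± 0.71 for Lag3 (95% interval -2.70 to 0.40), -0.42 ± 0.25 for Tigit (-0.97 to 0.13) and -0.42 ± 0.40 for Tox (-1.30 to 0.45). The call of Cd274 in WT only is therefore not shown to be a difference between genotypes (interaction 0.14, interval -0.40 to 0.67).

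Ligands and partners of the 9 gene products were read from the same arrays, where they report the T cells' own RNA and any other cells in the sample. Of 16 such genes, 3 rose and 0 fell in WT and 2 rose and 2 fell in KO on activation. Over all genes 20.6% were called in WT and 20.1% in KO, so these counts are not read as a response of the ligands. Lgals3, the gene of galectin-3, a LAG-3 ligand, rose by 3.89 ± 0.39 in WT and 3.14 ± 0.39 in KO (limma adjusted p = 2.94e-05 and 0.000165). Cd80, which binds PD-L1 as well as CD28 and CTLA-4, rose from background (limma adjusted p = 2.11e-05 in WT and 7.56e-05 in KO). By group means its rise was at least 5.35-fold in WT and 4.59-fold in KO. Pdcd1, the gene of PD-1, rose by 0.95 ± 0.25 in WT (adjusted p = 0.0201), a call lost without native WT array 1, 2 or 3 (up to 0.0705) and a value of 0.575 without activated WT array 3. In KO it differed by 0.55 (adjusted p = 0.176). Pdcd1 lay near background, above it on 1 of 3 native WT arrays and on 2 of 3 arrays of each other group. The size of its differences is therefore uncertain. Ceacam1, a ligand of TIM-3, and Tnfrsf14, the gene of HVEM, were the 2 genes that fell in KO. Ceacam1 was at background after activation, and its difference turned from -1.19 to 0.0874 when values under background were raised to it. Tnfrsf14 differed by -0.77 ± 0.24 (adjusted p = 0.0411), a call lost in 9 of the 12 fits that each left out 1 array (0.0564 to 0.135). Cd48, the ligand of 2B4, differed by 0.31 and 0.01, and Lgals9, the gene of galectin-9, by -0.57 and -0.68, none of them called.

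MHC class II molecules are the main ligands of LAG-3. Of 7 class II genes measured, H2-Aa, H2-Eb2, Cd74 and Ciita were at background in both activated groups, and 1, H2-Ab1, rose in WT. In KO 0 rose and 3 fell (Cd74, -1.92 ± 0.45; H2-Aa, -1.14 ± 0.35; H2-Eb1, -0.75 ± 0.17; limma adjusted p = 0.0103, 0.0409 and 0.01), and the median difference of the list was -0.75 in KO and -0.13 in WT. Over all genes 9.72% rose in WT, and 8.72% rose and 11.4% fell in KO. Cd74 and H2-Aa were at background after activation of KO cells, where by group means Cd74 was at least 2.48-fold lower than in native KO. The call of H2-Aa was lost in 8 of the 12 fits that each left out 1 array, all but those without native WT array 2 or 3, native KO array 2 or activated KO array 3 (adjusted p from 0.0501 to 0.141), with a difference of -0.69 without native KO array 1, and that of H2-Eb1 when values under background were raised to it (adjusted p = 0.394). The mean level of the list ranged from 6.18 to 6.67 in native WT, 6.46 to 7.37 in native KO, 6.60 to 6.71 in activated WT and 6.14 to 6.74 in activated KO. H2-Ab1 read 5.71, 6.42 and 5.46 in native WT, 7.64, 5.66 and 6.90 in native KO, 8.92, 9.08 and 9.60 in activated WT, and 8.41, 9.95 and 5.64 in activated KO. It rose by 3.33 ± 0.85 in WT (limma adjusted p = 0.015; up to 0.0565 without native WT array 1 or 3 or activated WT array 3) and differed by 1.27 in KO (adjusted p = 0.384). Any part of the allogenic APC in these H2-Ab1 values was not tested.

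Among 15 other inhibitory receptors and related genes, 4 rose and 4 fell in WT and 3 rose and 5 fell in KO. The share called was 20.6% of all genes in WT and 20.1% in KO. Among genes above background on at least 3 arrays it was 40% and 39%. The risers of this list included Klrc1 (NKG2A; 2.58 ± 0.23 in WT and 2.10 ± 0.23 in KO) and Lilrb4a (2.33 ± 0.43 and 2.02 ± 0.43). Btla, another HVEM receptor, fell, with differences of -0.86 ± 0.20 and -1.32 ± 0.20, beside the Cd160 values that did not pass. Pecam1 fell, with differences of -1.82 ± 0.45 in WT and -2.11 ± 0.45 in KO, though its WT call was lost without activated WT array 3 (adjusted p = 0.0628). Ctla4 differed by 2.43 in WT (adjusted p = 0.0619) and 0.76 in KO, where its arrays read 9.60, 11.09 and 6.46.

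Of 12 activating partners, 3 rose and 4 fell in WT and 3 rose and 5 fell in KO, against 20.6% and 20.1% of all genes called. Cd226, which shares its ligands with TIGIT and delivers the activating signal, fell, with differences of -1.52 ± 0.28 in WT and -1.60 ± 0.28 in KO (limma adjusted p = 0.0024 and 0.00178), opposite to Tigit. Crtam, of the same nectin-binding group, fell too (-1.09 ± 0.13 and -0.93 ± 0.13). Tnfrsf9, the costimulator 4-1BB, rose by 4.02 ± 0.29 and 3.99 ± 0.29. Slamf7, a relative of 2B4, rose by 1.99 ± 0.25 and 1.44 ± 0.25, and Slamf1, another relative, fell (-0.62 ± 0.15 and -0.81 ± 0.15), the WT fall missing the threshold without activated WT array 3 (adjusted p = 0.0503).

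Of 13 phosphatases and adaptors that act below the receptors, 1 rose and 1 fell in WT and 1 rose and 2 fell in KO. With 20.6% of all genes called in WT and 20.1% in KO, these counts are not read as a response of the list. Dok2, an adaptor that dampens receptor signalling, rose by 0.87 ± 0.13 in WT and 0.89 ± 0.13 in KO, and Pag1, which anchors the inhibitory kinase CSK, fell (-1.67 ± 0.28 and -1.88 ± 0.28). The phosphatases that inhibitory receptors recruit did not pass: Ptpn6 (SHP-1) differed by -0.02 and -0.37, and Ptpn11 (SHP-2) by 0.00 and 0.12. Sh2d1a, the gene of the adaptor SAP that shapes 2B4 signalling, differed by 0.61 (95% interval -0.36 to 1.58) and 0.31 (-0.66 to 1.29).

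Tox was the only gene of its family of 4 that was called. Tox2 and Tox3 were at background in all 4 groups, and Tox4 differed by -0.59 in WT (limma adjusted p = 0.0835) and -0.56 in KO (adjusted p = 0.104). Of 16 transcription factors linked to TOX or to receptor expression, 4 rose and 6 fell in WT and 3 rose and 5 fell in KO. The calls over all genes were 20.6% in WT and 20.1% in KO. The nuclear receptors Nr4a1 and Nr4a2, which act with TOX in exhausted T cells, fell with it. The difference was -2.87 ± 0.54 in WT and -3.06 ± 0.54 in KO for Nr4a1, and -1.66 ± 0.35 and -1.58 ± 0.35 for Nr4a2. Nr4a3, of the same family, averaged 9.19 in native WT and 7.73 in activated WT, and 9.35 and 8.28 in KO. Its WT call was lost without native WT array 2 or activated WT array 2 (limma adjusted p from 0.0531 to 0.0701). Irf4, induced by T cell receptor signals, rose by 2.77 ± 0.37 and 2.21 ± 0.37, and Prdm1, the gene of BLIMP-1, rose by 1.92 ± 0.33 and 1.39 ± 0.33. In each of these lists 0 genes were called between KO and WT in either state.

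**Figure D4:**
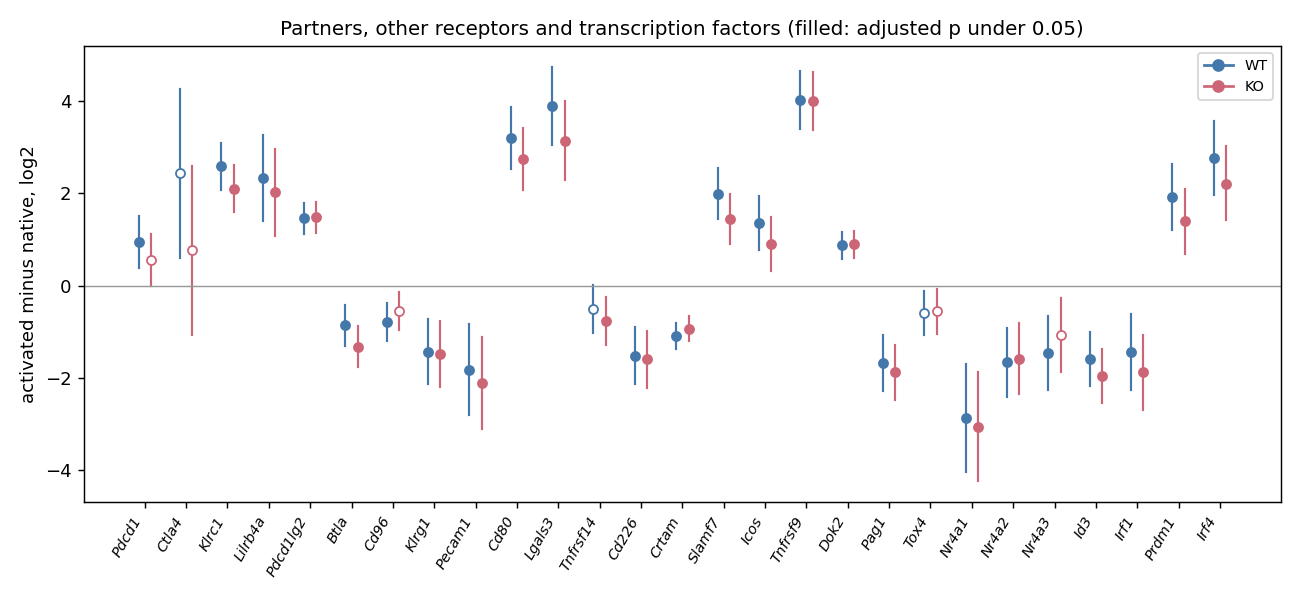
Activated minus native log2 differences with 95% intervals in WT (blue) and KO (red) cells for partners, other receptors, adaptors and transcription factors; filled points passed an adjusted p of 0.05. Cd226 and Nr4a1 lie below 0 and Lgals3, Tnfrsf9 and Irf4 above it in both genotypes.

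The genes whose profiles over the 12 arrays were most like those of each gene that moved by at least 1 log2 unit were found by the root mean square (RMS) difference after centring each gene on its own mean. For Lag3 they were Rasgrp4 (RMS 0.329), Ero1a (0.342) and Hpse (0.412), against an RMS of 1.65 for Lag3 itself around its mean. For Havcr2 they were Myo10 (0.293), Car5b (0.294) and Pilrb1 (0.314), against 1.53. For Tigit they were Nabp1 (0.163), Lgals1 (0.206) and Clspn (0.214), against 0.903.

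Cd244a was nearest to Syn1 (0.196), Gzmg (0.215) and Hemk1 (0.229), against an RMS of 0.92 of its own. Vsir was nearest to Lrba (0.12), Leng8 (0.136) and H2-Ke6 (0.142), against 0.619, and Tox to Arhgef18 (0.164), Tsc22d1 (0.165) and Il6st (0.199), against 1.07. No gene of the 9 was among the 3 nearest of another, and the likeness describes these arrays only.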

How the data were processed

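Per the labels' protocols, total RNA was labelled by the Affymetrix whole-transcript sense method. The authors deposited log2 expression values for 35556 transcript clusters on 12 arrays, which the submitters' processing notes attribute to Partek and RMA. Their versions and options are unstated in the labels and file. RMA compresses differences near background. The deposited table held 0 value columns of other samples. Transcript clusters with 1 symbol (21789; several 1621, none 12146) were named through the platform annotation, 21698 of them matched by Entrez identifier to the GRCm38.p6 gene table, and the brightest was kept per gene. Coordinates of genes and promoters come from RefSeq tables of that build; Lag3 and Tox promoters and all protein sequences were not used here.

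Group means were fitted with limma 3.58.1 in R 4.3.3 (lmFit, eBayes) over all 12 arrays, with Benjamini-Hochberg adjustment over 19938 genes; no filter was applied. Errors are standard errors and intervals are at 95%. Folds from background use the array's background level as the lower value. They set it against the mean of the other group and make no allowance for the spread between arrays. The p-values measure the spread between these arrays, which may be technical in part. Beyond the 9 genes, named genes were at most 4 called genes by size per context list, comparison and direction. For genes called at 1 log2 unit or more the 3 nearest profiles were named as well. H2-Ab1, Cd48, Lgals9, Ctla4, Ptpn6, Ptpn11, Sh2d1a, Fcer1g, Klrb1c, Tyrobp, Klri2, Gzma, Zbtb7b, Foxp3, Il2ra and Ikzf2 were added with values seen. The genes and lists were chosen with earlier results of these data known. Deviations from group means correlated between same-numbered native KO and WT arrays (r = 0.58, 0.396 and 0.157 over genes). Between native KO and WT arrays of unlike number r was at most 0.13. The numbers were therefore treated as pairs in native cells, a choice made from these same data. In either state the labels give the KO and WT arrays of a replicate the same number. Activated arrays correlated for number 1 only (0.694, -0.0166 and -0.013) and were not read as pairs. Alternatives varied the block, arrays fitted, normalization, variance model, filter and row choice, and left out each array; 2 were added after seeing the data (a native-only block, and values under background raised to it). The fitting code was tested on simulated data.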

Additional observations from a re-analysis of the deposited data

How the results depend on the processing

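Lag3, Havcr2, Tigit and Tox kept their activation calls and directions in both genotypes under all 23 alternatives. Their ranges were 3.09 to 3.85, 1.89 to 3.33, 1.82 to 2.09 and -2.02 to -1.62 in WT, and 1.79 to 2.96, 2.13 to 3.11, 1.42 to 1.7 and -2.59 to -1.97 in KO. Not every alternative could move a difference. Each of the 9 genes had 1 row, so averaging rows or fitting every row left its values unchanged. Leaving out an array of the other genotype changed only the error and the adjustment. Of the 23, the call was lost for Cd244a in 12 (WT) and 6 (KO), for Vsir in 9 and 1, and for Cd274 in 6 in WT. The number of the 9 genes called was 4 to 7 in WT and 5 to 7 in KO when 1 array was left out; in WT it was 4 without native WT array 1, 2 or 3 or activated WT array 1. Without 1 array it was 0 in the other comparisons.

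Under a replicate block (the number in the title as a fixed effect) the 9 genes' calls did not change: 7 in WT, 6 in KO and 0 between genotypes and in the interaction. That block also joins native with activated arrays, which share no number in the labels' descriptions. For title numbers 1 to 3, deviations of native and activated arrays correlated at 0.234, 0.00855 and -0.103 in WT. In KO these values were 0.335, -0.139 and 0.264. The block therefore does not test a known pairing of native with activated arrays. Over all genes the block gave 4498 calls in WT (against 4107) and 4414 in KO (against 4002). With the native arrays alone and the number as block, 14 genes passed between KO and WT, against 0, and none was of the 9. The number of genes called between native KO and WT was 2 with array weights or every row, and 1 with a trended robust fit or with dim genes removed (10545 kept). It was 10 without native KO array 2, 1 without native WT array 1 or native KO array 3, and 0 without any other array.

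Array weights raised the calls to 6928 in WT and 6932 in KO, and a fit over every row of the table gave 7687 and 7526. Raising values under background gave 2616 and 2581, moving the all-gene median from -0.0214 to 0.132 in WT and from 0.0216 to 0.273 in KO. It turned the sign of Cd200 in all 5 comparisons (0.132 and 0.273 on activation, 0.0377 and 0.179 between genotypes, interaction 0.141), of Cd160 in KO activation (0.138) and of Ceacam1 there (0.0874). Array weights turned Cd160 in KO activation (0.356), Cd244a (-0.0106 native, -0.268 activated, interaction -0.258) and Havcr2 (-0.256 activated, interaction -0.373). None of the values of the 9 genes that turned had been called. Cd200 lay under background on every array, so raising replaced all its values with the arrays' background levels. Its differences in that setting are therefore differences between background levels and do not describe the gene. The cause of the other turns was not tested.

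Leaving out 1 array turned the sign of further uncalled values. On activation Cd160 ranged from -0.363 to 0.0433 in WT and -0.327 to 0.379 in KO, and Cd200 from -0.18 to 0.168 and -0.338 to 0.0589. Between native genotypes the ranges were -0.0371 to 0.23 for Cd244a, -0.0597 to 0.00351 for Cd200, -0.0187 to 0.0823 for Cd274 and -0.127 to 0.00247 for Tox. Between activated genotypes they were -0.305 to 0.971 for Havcr2, -0.17 to 0.058 for Tigit, -0.387 to 0.769 for Cd244a, -0.324 to 0.0947 for Cd200 and -0.021 to 0.346 for Cd274. For the interaction they were -0.402 to 0.874 for Havcr2, -0.112 to 0.594 for Cd160, -0.484 to 0.672 for Cd244a, -0.561 to 0.137 for Vsir, -0.302 to 0.117 for Cd200 and -0.0491 to 0.318 for Cd274. Levels near background limit Lag3, Havcr2 and Cd244a in native cells, where a smaller native level could not be told from none.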
